A study of Mus musculus with 12 samples.

Results

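The 8 genes described here encode the decapping complex and the 5' to 3' decay machinery of the mouse: Dcp2, Dcp1a, Dcp1b, Edc3, Edc4, Patl1, Lsm1 and Xrn1. They were chosen by name for their known role, with no threshold on a measured value, and were found in the count table by matching its gene identifiers to mouse gene symbols. All 8 were present among 51467 genes in the table, and all 8 passed the filter on low counts that left 14033 genes for testing. Embryonic stem cells (ESCs), grown with LIF and 2 inhibitors of differentiation signalling, were either wild-type or lacked Dgcr8 (Dgcr8 KO), which encodes a factor needed to make most microRNAs. In both genotypes, RNA made during a 30 min pulse took up 4-thiouridine (4sU, an analogue of uridine, 500 uM), and the RNA of each sample was divided. Labelled RNA captured from one portion measured nascent transcription (4sU libraries), and the other portion, depleted of ribosomal RNA, measured steady-state levels (total libraries). Each of the 4 groups held 3 replicates, 12 libraries in all.

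In the main pathway of cytoplasmic mRNA decay, the poly(A) tail is first shortened, the cap is then removed, and the exposed 5' end is digested. DCP2 is the enzyme that cuts the cap, DCP1 proteins and the enhancers of decapping activate or hold it in place, and XRN1 digests the decapped transcript. MicroRNAs recruit deadenylases and decapping factors to the mRNAs they bind, so these proteins act both in general decay and in the last step of microRNA-directed decay.

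The Dgcr8 KO line had been derived before this study, and nothing states whether the replicates were separate cultures, so p-values measure the spread between these samples, which may be technical. One source label of the KO libraries reads DDX8KO, while their titles and genotype labels read DGCR8 KO. Dgcr8 itself lay at 32.0 to 34.1 CPM (read counts scaled to library size and TMM factor) in KO total libraries against 92.5 to 111 CPM in wild-type, and at 71.2 to 86.8 against 107 to 118 CPM in 4sU libraries. Counts over the whole gene do not show which exons remain. The 8 ESC markers examined ranged from 133 to 1752 CPM in all libraries, their summed level was 5462 to 5546 CPM in wild-type and 6177 to 6840 CPM in KO 4sU libraries, and it was 5062 to 5168 against 4996 to 5058 CPM in total libraries. None of 5 fibroblast markers passed the filter, and the highest was at 2.51 CPM. Of the differentiation markers, 1 of 4 for endoderm and 2 of 5 for mesoderm and neural cells passed, with sums of at most 17.2 and 41.8 CPM. Libraries held 4593914 to 9295245 counts. The 92 spike-in sequences had 1 count in all, so every value is relative to the RNA of its own library, and fewer cells with a transcript cannot be told apart from less of it per cell.

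Levels of the 8 genes were compared first within each group, per length, as RPKM (TMM-scaled CPM per kilobase of exon). Dcp2 stood highest in every group and Dcp1b lowest. In wild-type total RNA the order was Dcp2 (69.6 ± 1.84 RPKM, SD, n = 3), Edc4 (48.5 ± 2.25), Lsm1 (17.6 ± 0.827), Dcp1a (15.2 ± 0.189), Xrn1 (12.6 ± 0.922), Patl1 (8.96 ± 0.269), Edc3 (5.43 ± 0.345) and Dcp1b (1.25 ± 0.548), and no neighbours overlapped over their 3 libraries. Among all tested genes, whose median was 8.74 RPKM, Dcp2 lay at the 91.4th percentile and Dcp1b at the 17.7th. In KO total RNA, Lsm1 (11.3 ± 0.685 RPKM) came below Dcp1a (15.0 ± 0.326) and Xrn1 (15.1 ± 0.206), and the last 2 overlapped. Nascent levels followed another order. Patl1, near the middle of the tested genes in wild-type total RNA (50.7th percentile), was second among the 8 in wild-type 4sU RNA at 23.0 ± 0.420 RPKM (78.2nd percentile), above Edc4 (21.8 ± 0.611), Lsm1 (19.5 ± 0.377) and Dcp1a (18.1 ± 1.17), of which Lsm1 and Dcp1a overlapped. In KO 4sU RNA, Dcp1a (23.6 ± 0.875 RPKM) and Patl1 (23.6 ± 1.38) overlapped in the second place, and Edc3 (13.6 ± 1.18) and Lsm1 (11.5 ± 1.22) overlapped further down.

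**Figure D1:**
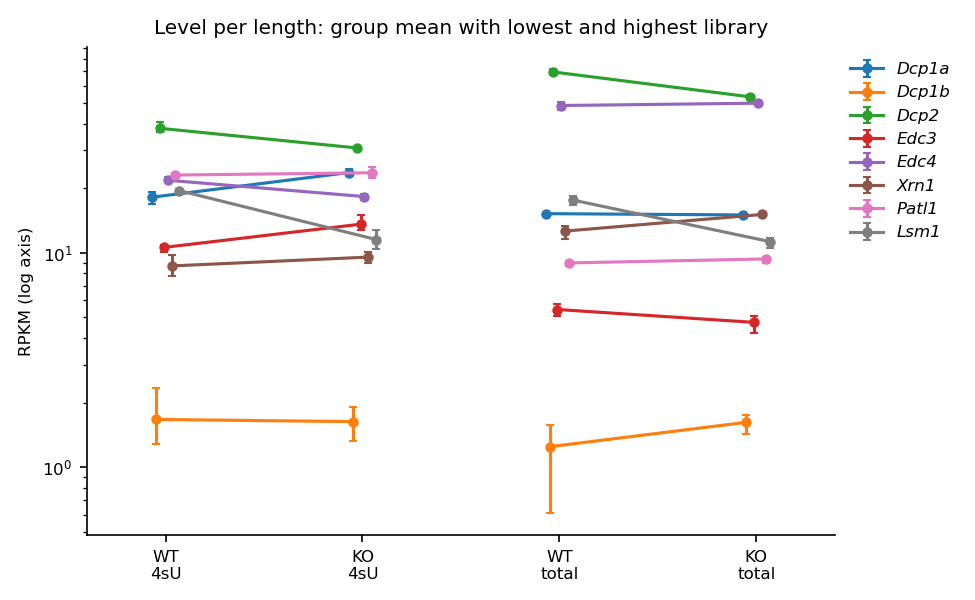
Level of the 8 decay factors per length (RPKM, log axis) in the 4 groups, as the group mean with the lowest and highest of 3 libraries. Dcp2 is at the top and Dcp1b at the bottom of every group, and Lsm1 is above Dcp1a and Xrn1 in wild-type total RNA (17.6 RPKM) and below both in KO (11.3 RPKM).

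MicroRNAs of the ESC-specific cell cycle (ESCC) family are among those that Dgcr8 KO cells cannot make, and they are shown because their shared seed defines the sites looked for in the 8 genes. The mature sequences, from RefSeq on build GRCm38.p6, are written 5' to 3' with the seed (bases 2 to 8) in capitals. All 5 shown have the same seed.
miR-302b-3p: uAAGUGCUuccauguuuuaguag
miR-302d-3p: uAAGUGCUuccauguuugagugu
miR-291a-3p: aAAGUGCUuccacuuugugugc
miR-294-3p: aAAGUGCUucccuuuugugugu
miR-295-3p: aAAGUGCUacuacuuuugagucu
Matches were searched as the hexamer GCACTT on the transcript strand of the longest 3' UTR annotated in GENCODE M21, and a site was defined as AGCACTT or GCACTTA, both of which hold that hexamer. Of 11806 tested coding genes with a 3' UTR, 34.0% held the hexamer, 21.3% a site and 3.67% the longer match AGCACTTA. Among the 8 decay factors, 4 held the hexamer and 2, Dcp1b and Dcp2, held a site. The matches of Dcp1b, Edc3 and Xrn1 follow on build GRCm38, plus strand, with the matching bases in capitals.
Dcp1b chr6:119221487-119221516: gttcaatccctAGCACTTAaaaaaagaaat
Edc3 chr9:57751376-57751403: ctctgcaaaatGCACTTgtccaggtacc
Xrn1 chr9:96052925-96052952: taagttaccagGCACTTttcatgctatt
Xrn1 chr9:96052963-96052990: tatcaaattgtGCACTTtaaatatgtgc
The single match of Dcp1b was the longer form, 1419 bases after the stop codon. Edc3 and Xrn1 held the hexamer without the flanking A on either side, once in Edc3 and at 2 places 127 and 165 bases after the stop codon in Xrn1.

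Dcp2 held 6 hexamers in a 3' UTR of 7240 bases, longer than that of 98.8% of tested genes. They began 537, 1804, 2594, 3634, 4140 and 5669 bases after the stop codon, and 5 of the 6 had a flanking A. This was 0.829 hexamers per kilobase, against 0.313 over all tested 3' UTRs, and 26 genes (0.220%) held as many or more. The median change of those 26 genes in the ratio of total to 4sU signal was 0.27 on the log2 scale (quartiles -0.04 and 0.50). It was 0.03 for the 2518 genes with a site (quartiles -0.18 and 0.26) and -0.14 for the 7795 genes with no hexamer. Dcp2 lay at -0.08. These sets were not matched for 3' UTR length, and a link between matches and the ratio was not tested. Dcp1a, Edc4, Patl1 and Lsm1 had no hexamer in this window.

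Next, Dgcr8 KO was compared with wild-type in total RNA, in nascent RNA and in the ratio of total to 4sU signal, which the study took as relative mRNA stability. The 3 comparisons came from a single model in limma, and a gene passed at a Benjamini-Hochberg adjusted p under 0.05 over all 14033 genes. The change in the ratio is the change in total RNA minus that in nascent RNA, so the 3 values of a gene are not independent. In total RNA, 1 of the 8 factors was higher (Xrn1) and 2 were lower (Dcp2 and Lsm1). Over all genes 27.2% were higher and 36.7% lower. In nascent RNA 2 were higher (Dcp1a and Edc3) and 3 lower (Dcp2, Edc4 and Lsm1), beside 28.3% and 28.0% of all genes. In the ratio 1 was higher (Edc4) and 2 were lower (Dcp1a and Edc3), beside 5.02% and 11.1%. With 8 genes, each gene makes up 12.5% of the list. None of the 8 changed by more than 2-fold in any comparison, an additional limit that the study stated for its comparisons of ESC differentiation. Of all genes, 17.2% passed with such a change in total RNA, 14.8% in nascent RNA and 1.76% in the ratio. The median change of the 8 was 0.01 in total RNA, 0.01 in nascent RNA and 0.07 in the ratio, beside -0.09, -0.02 and -0.09 over all genes. The split of ratio changes over all genes depended on scaling, with 31.1% of calls higher under TMM, 52.2% under RLE size factors and 46.6% under upper-quartile scaling. The 3 ratio calls among the 8 factors were the same genes under each, but their sizes moved. From TMM to RLE, Dcp1a went from -0.40 to -0.31, Edc3 from -0.54 to -0.45 and Edc4 from 0.29 to 0.38.

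**Figure D2:**
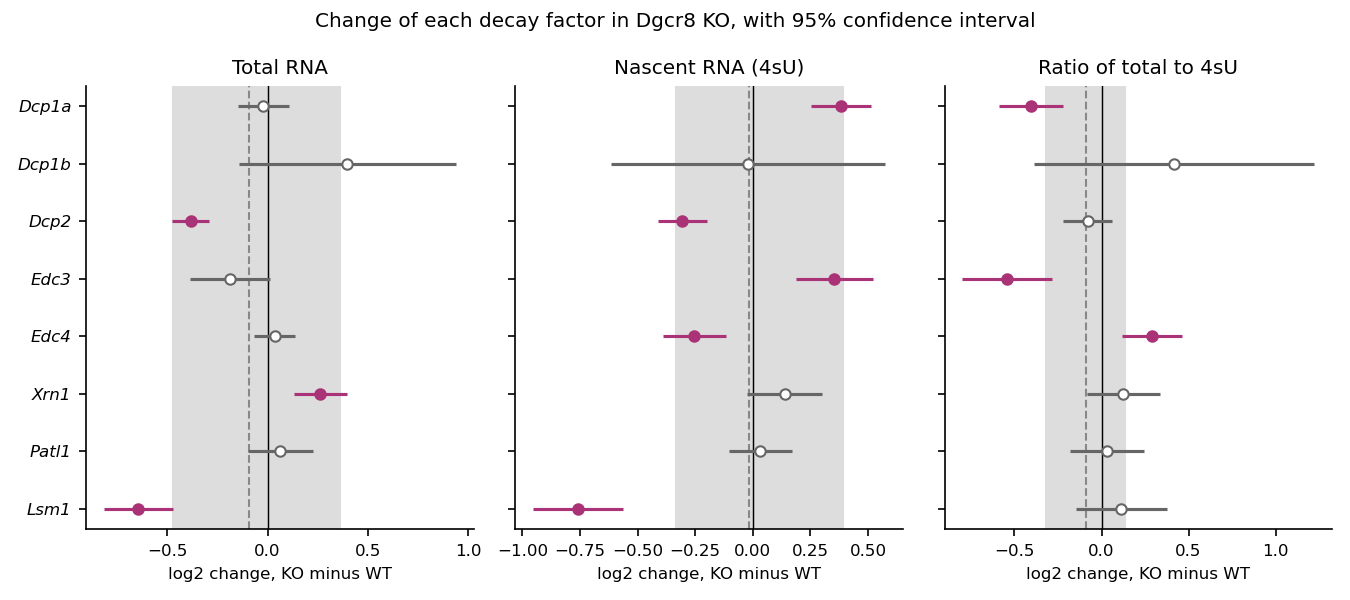
Log2 change (KO minus wild-type) of the 8 decay factors in total RNA, nascent RNA and the ratio of total to 4sU signal. Points are limma estimates from 12 libraries with 95% confidence intervals, filled where the adjusted p was under 0.05, the dashed line is the median of all 14033 genes and the grey band spans their quartiles. Filled points stand for 3, 5 and 3 genes, and Dcp1b has the widest intervals.

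Dcp2 (ENSMUSG00000024472.9, mm10 chromosome 18, 44380502 to 44424969, plus strand) encodes the decapping enzyme. In total RNA it stood at 624, 596 and 597 CPM in the wild-type libraries and at 472, 456 and 462 CPM in the KO libraries. In 4sU RNA it stood at 354, 317 and 323 against 267, 268 and 269 CPM. All KO libraries lay below all wild-type libraries in both kinds of RNA. Its total RNA fell by 0.38 in log2 units (SE 0.0442, limma adjusted p = 5.16e-09, edgeR adjusted p = 7.89e-08), or by 23.3%, and its nascent RNA fell by 0.31 (SE 0.0527, limma adjusted p = 1.11e-05), or by 19.1%. The ratio of total to 4sU signal changed by -0.08 (95% interval -0.22 to 0.06, limma adjusted p = 0.500), with no detectable difference at this depth. Relative to the median gene, Dcp2 had a log2 ratio of 0.74, 0.81 and 0.80 in the wild-type pairs of same-numbered libraries and 0.81, 0.77 and 0.79 in the KO pairs, which overlap.

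Xrn1 (ENSMUSG00000032410.13, chromosome 9, 95954760 to 96057803, plus strand) encodes the cytoplasmic 5' to 3' exonuclease and was the only one of the 8 whose rise in total RNA passed. Its total RNA was 139.7, 136 and 121 CPM in wild-type and 156, 159 and 159 CPM in KO libraries, without overlap. The rise was 0.26 in log2 units (SE 0.0649, limma adjusted p = 0.000709, edgeR adjusted p = 0.000935), or 20.0%. Xrn1 and Dcp2, the nuclease and the enzyme that acts before it, thus had changes of opposite sign in total RNA. In 4sU RNA Xrn1 was at 102.5, 88.5 and 81.8 CPM in wild-type and 93.4, 101 and 106 CPM in KO libraries, and the groups overlapped. The nascent change was 0.14 (95% interval -0.02 to 0.30, limma adjusted p = 0.139) and the ratio changed by 0.13 (95% interval -0.08 to 0.33, limma adjusted p = 0.460). Neither passed, and neither interval reached the size of a 2-fold change. Without wild-type replicate 1, the nascent change was 0.23 and passed (limma adjusted p = 0.0256).

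Dcp1a and Dcp1b encode alternative DCP1 subunits, the activators that bind DCP2. Dcp1a (ENSMUSG00000021962.8, chromosome 14, 30479565 to 30527056, plus strand) was much the more abundant transcript. Its nascent RNA was 107, 104 and 94.6 CPM in wild-type and 128, 138 and 132 CPM in KO libraries, with every KO library above every wild-type one. The nascent rise was 0.38 in log2 units (SE 0.0642, limma adjusted p = 7.11e-06, edgeR adjusted p = 5.13e-06), or 30.4%. In total RNA the groups overlapped, at 86.3, 85.6 and 84.2 against 82.8, 83.6 and 86.3 CPM. The total change was -0.02 (95% interval -0.15 to 0.11, limma adjusted p = 0.797), with an upper bound below the nascent rise. The ratio of total to 4sU signal fell by 0.40 (SE 0.0901, limma adjusted p = 0.00172, edgeR adjusted p = 0.00160), or by 24.4%. Relative to the median gene the log2 ratio of Dcp1a was -0.39, -0.38 and -0.25 in wild-type pairs and -0.64, -0.72 and -0.60 in KO pairs, which do not overlap.

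Dcp1b (ENSMUSG00000041477.14, chromosome 6, 119175253 to 119221616, plus strand) had few reads, 13 to 48 per library. Its level in total RNA was 2.03, 5.12 and 5.23 CPM in wild-type and 4.74, 5.58 and 5.77 CPM in KO libraries. The groups overlapped, and wild-type replicate 1 stood apart, lowest in total RNA and highest in 4sU RNA (7.72 CPM, against 4.60 and 4.27 CPM in the other wild-type libraries and 4.40, 6.30 and 5.52 CPM in KO libraries). The log2 changes were 0.40 in total RNA (95% interval -0.14 to 0.94, limma adjusted p = 0.194), -0.02 in nascent RNA (95% interval -0.62 to 0.57, limma adjusted p = 0.959) and 0.42 in the ratio (95% interval -0.39 to 1.22, limma adjusted p = 0.534). These intervals leave room for a KO level of 0.905 to 1.92 times wild-type in total RNA and 0.653 to 1.49 times in nascent RNA. Without wild-type replicate 1 the total change was 0.03 and the ratio change -0.24. The Dcp1b match to the ESCC seed shown above is thus in the member whose change was measured least precisely. Dcp1a exceeded Dcp1b by 9.50- to 25.1-fold per length in wild-type total libraries and by 8.82- to 10.3-fold in KO libraries. The log2 ratio of Dcp1a to Dcp1b was 4.65, 3.30 and 3.25 in wild-type and 3.37, 3.14 and 3.14 in KO libraries, a difference of -0.52 that did not exceed the spread (exact two-sided permutation test, p = 0.3, the smallest possible being 0.1). Without wild-type replicate 1 the difference was -0.06.

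**Figure D3:**
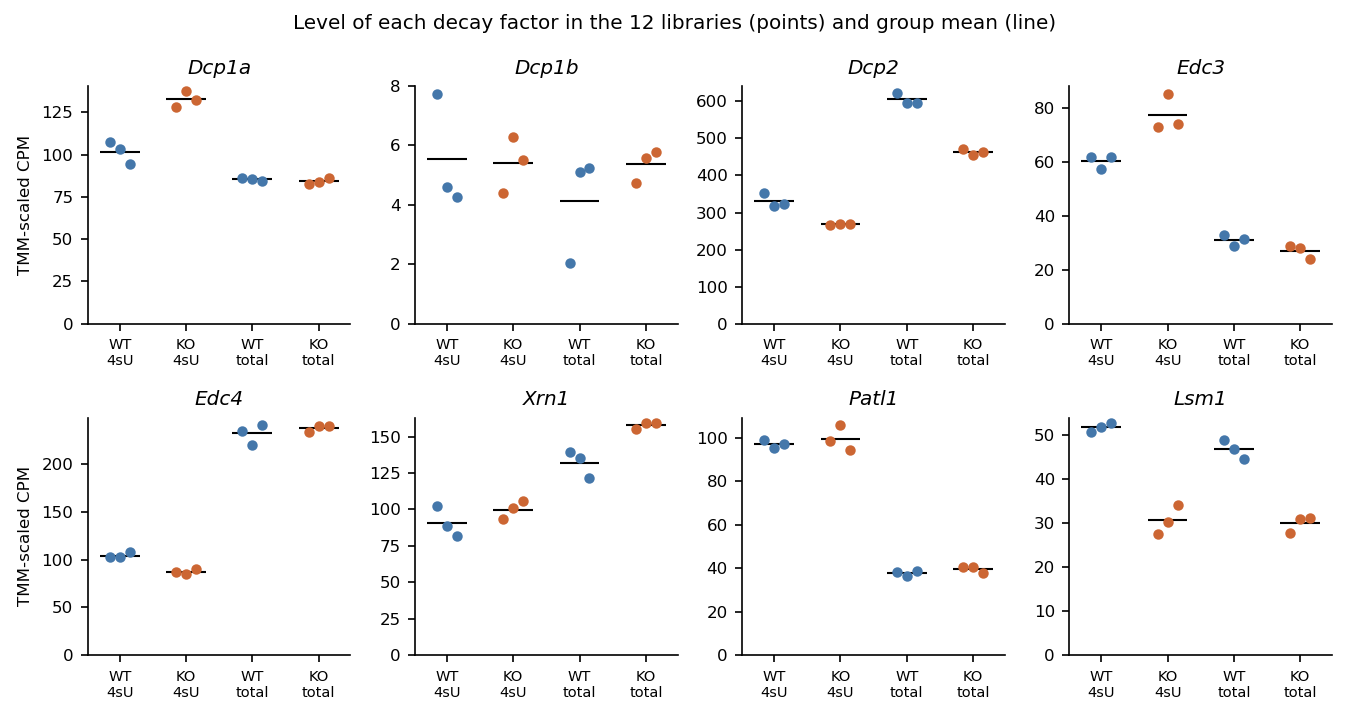
Level of each decay factor in the 12 libraries (TMM-scaled CPM, axes from 0), with 3 points per group and a line at the group mean. Dcp2 and Lsm1 are lower in KO than in wild-type in both kinds of RNA, Dcp1a and Edc3 are higher in KO 4sU RNA, and the Dcp1b points include wild-type total replicate 1 at 2.03 CPM.

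Edc3 and Edc4 encode enhancers of decapping, scaffold proteins that bring DCP1, DCP2 and their partners together. Edc3 (ENSMUSG00000038957.13, chromosome 9, 57708540 to 57752499, plus strand) followed the pattern of Dcp1a. Its nascent RNA was 61.8, 57.3 and 62.1 CPM in wild-type and 73.0, 85.3 and 74.2 CPM in KO libraries, without overlap, a rise of 0.35 in log2 units (SE 0.0811, limma adjusted p = 0.000422, edgeR adjusted p = 0.000360), or 27.8%. Total RNA was 32.8, 28.9 and 31.4 CPM in wild-type and 28.8, 28.2 and 24.1 CPM in KO libraries. The KO values lay just below the wild-type values, and the change of -0.19 did not pass (95% interval -0.39 to 0.01, limma adjusted p = 0.0909), although it did without wild-type replicate 2 (-0.25, limma adjusted p = 0.0450). The ratio fell by 0.54 (SE 0.127, limma adjusted p = 0.00265, edgeR adjusted p = 0.00185), or by 31.3%, the largest ratio change among the 8 that passed. Relative to the median gene, its log2 ratio was -0.98, -1.08 and -1.06 in wild-type pairs and -1.34, -1.58 and -1.59 in KO pairs, which do not overlap.

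Edc4 (ENSMUSG00000036270.16, chromosome 8, 105880881 to 105893225, plus strand) moved the other way. Its nascent RNA was 102, 102 and 107 CPM in wild-type and 87.2, 84.5 and 90.2 CPM in KO libraries, without overlap, and fell by 0.25 in log2 units (SE 0.0676, limma adjusted p = 0.00196, edgeR adjusted p = 0.00148), or by 16.1%. Total RNA overlapped between genotypes, at 235, 220.1 and 241 CPM against 234, 240.0 and 240.3 CPM, with a change of 0.04 (95% interval -0.07 to 0.14, limma adjusted p = 0.537). The ratio rose by 0.29 (SE 0.0842, limma adjusted p = 0.0154, edgeR adjusted p = 0.0164), or 22.3%. Its log2 ratio relative to the median gene was 1.12, 0.99 and 1.08 in wild-type pairs and 1.407, 1.501 and 1.420 in KO pairs, which do not overlap, and it passed from the 83.5th to the 91.6th percentile of all genes. This call was the least stable of the 3, since the limma adjusted p was 0.0536 without wild-type replicate 2 and 0.108 without KO replicate 2.

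**Figure D4:**
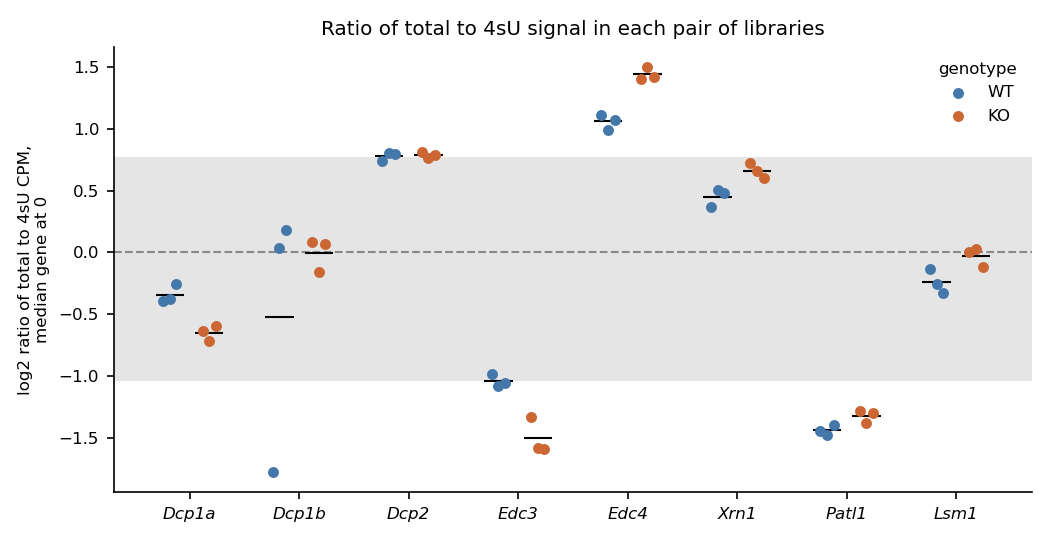
Log2 ratio of total to 4sU CPM for each pair of same-numbered libraries (points) and its mean (line), centred so that the median gene of each pair is at 0, with the quartiles of all genes in wild-type in grey. Dcp1a and Edc3 are lower in KO than in wild-type and Edc4 is higher. The pairs of Xrn1, Patl1 and Lsm1 also do not overlap, although their ratio changes did not pass and the share of all genes that separate was not counted. Those of Dcp2 and Dcp1b overlap.

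Among the 8 factors the ratio of total to 4sU signal itself spanned a wide range in wild-type cells. Edc4 (1.06 ± 0.0634 on the log2 scale relative to the median gene, SD, n = 3) and Dcp2 (0.78 ± 0.0367) lay at the 83.5th and 75.4th percentiles of all genes, Xrn1 (0.45 ± 0.0745) at the 64.7th, and Patl1 (-1.44 ± 0.0394) and Edc3 (-1.04 ± 0.0518) at the 18.5th and 24.8th. The decapping enzyme and the scaffold Edc4 thus stood among transcripts with a high ratio, and Patl1 and Edc3 among those with a low one. These positions rank relative signal and are not half-lives. Between genotypes, the pairs of Xrn1 (0.37, 0.51 and 0.48 in wild-type, 0.72, 0.66 and 0.60 in KO), Patl1 and Lsm1 also did not overlap. The ratio changes of these genes did not pass. How many of all genes separate in this way was not counted, so the separation cannot be called particular to them. These ratios are centred on the median gene of each pair, while the limma changes are not. The median limma ratio change over all genes was -0.09, so centring raises KO ratios against wild-type. The means of Patl1 were -1.44 in wild-type and -1.32 in KO pairs, beside a limma change of 0.03.

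Patl1 and Lsm1 encode the factors that link the shortened poly(A) tail to decapping. PATL1 bridges decapping factors, and LSM1 is the subunit that distinguishes the cytoplasmic LSM1 to LSM7 ring, which binds the 3' ends of deadenylated mRNA, from the nuclear ring of splicing. Patl1 (ENSMUSG00000046139.7, chromosome 19, 11912399 to 11945096, plus strand) passed in no comparison. It stood at 98.9, 95.4 and 97.1 CPM in wild-type and 98.4, 106 and 94.4 CPM in KO 4sU libraries, and at 38.1, 36.6 and 38.8 against 40.4, 40.4 and 37.7 CPM in total libraries, overlapping in both. Its changes were 0.06 in total RNA (95% interval -0.10 to 0.23), 0.03 in nascent RNA (-0.10 to 0.17) and 0.03 in the ratio (-0.18 to 0.24), with limma adjusted p of 0.497, 0.690 and 0.887.

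Lsm1 (ENSMUSG00000037296.7, chromosome 8, 25785288 to 25803975, plus strand) had the largest changes of the 8 in total and nascent RNA. In total RNA it was 49.0, 46.8 and 44.6 CPM in wild-type and 27.9, 30.9 and 31.2 CPM in KO libraries. In 4sU RNA it was 50.8, 51.9 and 52.8 against 27.6, 30.3 and 34.1 CPM. The groups were far apart in both. Total RNA fell by 0.64 in log2 units (SE 0.0844, limma adjusted p = 6.20e-08, edgeR adjusted p = 4.11e-08), or by 36.0%, and nascent RNA fell by 0.76 (SE 0.0961, limma adjusted p = 5.86e-08), or by 40.9%, which placed Lsm1 at the 8.34th percentile of nascent changes over all genes. Its ratio changed by 0.11 (95% interval -0.15 to 0.37, limma adjusted p = 0.615). Lsm1 thus resembled Dcp2 in that both kinds of RNA fell and the ratio did not pass.

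The other ring subunits, Lsm2 to Lsm7, were examined next, as they assemble with LSM1 in the cytoplasm and with another subunit in the nucleus. They were split from the list of partners given below and were not planned as a list of their own. Of these 6 genes, 5 were lower in total RNA, 5 in nascent RNA and 3 in the ratio (83.3%, 83.3% and 50.0%, beside 36.7%, 28.0% and 11.1% of all genes). None was higher by limma, by edgeR or at an unadjusted p under 0.05. Their medians were -0.82, -0.37 and -0.47 (all genes -0.09, -0.02 and -0.09). The counts in total and nascent RNA were the same under all 3 other scalings, and in the ratio Lsm6 no longer passed under RLE or upper-quartile scaling (limma adjusted p = 0.104 and 0.0769). Lsm4 stood at 173, 181 and 190.1 CPM in wild-type and 93.0, 95.8 and 96.0 CPM in KO total libraries, without overlap. It fell by 0.94 in total RNA (limma adjusted p = 4.68e-15), by 0.40 in nascent RNA (limma adjusted p = 0.000215) and by 0.53 in the ratio (limma adjusted p = 0.000437). Lsm2 and Lsm6 also had lower ratios, by 0.59 (limma adjusted p = 0.00155) and 0.41 (limma adjusted p = 0.0284). The total RNA of Lsm5 fell by 1.48 (SE 0.258, limma adjusted p = 8.20e-06), from few reads, at 5.9 to 7.9 CPM in wild-type and 1.8 to 3.0 CPM in KO libraries. Lsm7 was the exception, at -0.14 in total RNA, and did not pass in any comparison. The fall of Lsm1 was therefore shared in total RNA by 5 of its 6 ring partners, while the ratio change of Lsm1 was 0.11 and those of the 6 partners ranged from -0.67 to -0.09. None of Lsm2 to Lsm7 held the ESCC hexamer in its longest 3' UTR, beside 34.0% of tested coding genes that held it. Apart from that of Lsm6 (3346 bases), these 3' UTRs were short, at 194 to 869 bases against a median of 1201.5. A link between the hexamer and the falls of these genes was not tested. For Lsm3, 23.4% of the exon length overlaps another gene on the same strand, so its count is uncertain.

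**Figure D5:**
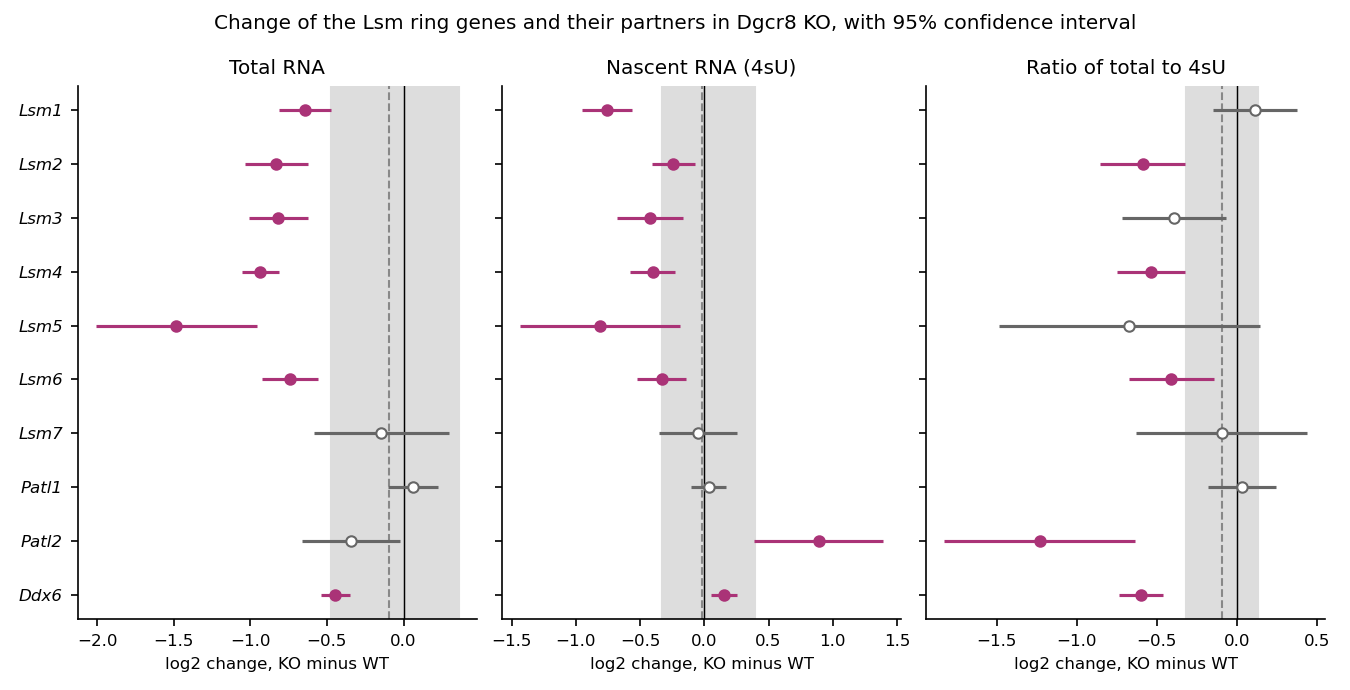
Log2 change (KO minus wild-type) of Lsm1 to Lsm7, Patl1, Patl2 and Ddx6 in total RNA, nascent RNA and the ratio of total to 4sU signal, with 95% confidence intervals, filled where the limma adjusted p was under 0.05. Lsm1 to Lsm6 and Ddx6 are filled in total and nascent RNA, and Patl2 in nascent RNA. Lsm2, Lsm4, Lsm6, Patl2 and Ddx6 are filled in the ratio.

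Further partners of the decapping complex formed with Lsm2 to Lsm7 a list of 14 genes, of which 1 was higher and 9 were lower in total RNA, 4 higher and 7 lower in nascent RNA, and 1 higher and 5 lower in the ratio. Over all genes 27.2% were higher and 36.7% lower in total RNA, 28.3% and 28.0% in nascent RNA, and 5.02% and 11.1% in the ratio. The share of the list that was higher in nascent RNA (28.6%) was that of all genes. The shares lower were 64.3% in total RNA, 50.0% in nascent RNA and 35.7% in the ratio, and Lsm2 to Lsm7 supplied 5, 5 and 3 of these lower genes. Ddx6, the RNA helicase that joins decapping factors to translational repression, fell in total RNA from 377, 399 and 396 CPM to 286, 288 and 288 CPM, without overlap. This was a fall of 0.45 in log2 units (SE 0.0456, limma adjusted p = 4.14e-10), while its nascent RNA rose by 0.15 (limma adjusted p = 0.00951, but 0.09999 under RLE and 0.0685 under upper-quartile scaling) and its ratio fell by 0.60 (limma adjusted p = 9.94e-08). Patl2, the paralogue of Patl1, had a ratio that fell by 1.23 (SE 0.292, limma adjusted p = 0.00307), from 2.9 to 10.9 CPM across the wild-type libraries. Its nascent RNA rose by 0.89 (limma adjusted p = 0.00271) from 14 to 28 reads per wild-type library, and its total change of -0.34 did not pass (limma adjusted p = 0.0581). The ratio of Lsm14b rose by 0.57 (limma adjusted p = 0.00180). Its nascent RNA fell by 0.62 (limma adjusted p = 1.65e-05), while its total change of -0.04 did not pass (limma adjusted p = 0.591). Pnrc1, a nuclear receptor coactivator that also binds decapping factors, was the single gene of the list whose rise in total RNA passed, at 0.57 (limma adjusted p = 1.21e-08).

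Enzymes and pathways that act beside the 8 factors were counted in the same way. Of 5 other decapping and 5' to 3' enzymes, 1 was higher in total RNA, 2 were higher and 1 lower in nascent RNA, and 1 was lower in the ratio. Each gene is 20.0% of this list, so its counts cannot be set apart from the shares of all genes (27.2% higher in total RNA, 28.3% higher and 28.0% lower in nascent RNA, 11.1% lower in the ratio). The gene concerned in total RNA and in the ratio was Nudt3, which encodes a Nudix hydrolase with decapping activity. It rose from 74.8, 81.8 and 74.6 CPM to 110.1, 122 and 108 CPM in total RNA, by 0.55 on the log2 scale (limma adjusted p = 1.15e-08), and by 1.21 in nascent RNA (limma adjusted p = 1.19e-13), so that its ratio fell by 0.66 (limma adjusted p = 4.52e-05). Xrn2, the nuclear counterpart of Xrn1, overlapped between genotypes in total RNA, at 449, 471 and 432 CPM against 439, 463 and 462 CPM.

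Decay from the 3' end is carried out by the exosome and its cofactors. Of 16 such genes, Exosc6 was listed at 0 in every library and 15 were tested, of which 9 were lower in total RNA, 1 was higher and 5 lower in nascent RNA, and 2 were lower in the ratio. The shares lower were 60.0%, 33.3% and 13.3%, beside 36.7%, 28.0% and 11.1% of all genes, so those in nascent RNA and the ratio were near the background. None was higher in total RNA or the ratio by limma, by edgeR or at an unadjusted p under 0.05. The largest falls in total RNA were those of Wdr61 (-0.75, limma adjusted p = 5.81e-11) and Exosc2 (-0.73, limma adjusted p = 2.22e-10), and the ratios that fell were those of Exosc3 (-0.75, limma adjusted p = 0.000498) and Exosc5 (-0.40, limma adjusted p = 0.0182), the latter no longer passing under RLE (limma adjusted p = 0.0881) or upper-quartile scaling (0.0584). Of 9 genes of nonsense-mediated decay, which feeds faulty mRNAs into decapping and other routes, 1 was higher and 7 were lower in total RNA, 1 higher and 5 lower in nascent RNA, and 3 lower in the ratio. The shares lower in these 9 genes were 77.8%, 55.6% and 33.3%, beside 36.7%, 28.0% and 11.1% of all genes. Upf3a (-0.75, limma adjusted p = 1.64e-10) and Smg5 (-0.72, limma adjusted p = 6.97e-13) fell most in total RNA, and Smg1, the kinase of the pathway, rose by 0.12 (limma adjusted p = 0.0272), a call that edgeR did not make. The 3 lower ratios were those of Upf1 (-0.29), Upf2 (-0.33) and Smg9 (-0.50), with limma adjusted p of 0.0190, 0.0139 and 0.0211, and none of the 3 passed under RLE or upper-quartile scaling. Under RLE or upper-quartile scaling, the partner list had 8 genes lower in total RNA, 3 higher and 8 lower in nascent RNA and 4 lower in the ratio, the other enzymes 1 higher in nascent RNA, and the 3' to 5' genes 0 higher and 6 lower in nascent RNA and 1 lower in the ratio. Median changes in total RNA were -0.33 for the 3' to 5' genes and -0.40 for the nonsense-mediated decay genes, against 0.01 for the 8 factors and -0.09 for all genes.

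Last, the genes whose levels across the 12 libraries were most like those of Dcp2 and Xrn1 were found by Pearson's r of log2(CPM + 0.5). These correlations are a description, since the libraries fall into 4 groups and share genotype and library type. Nearest to Dcp2 were Iars (r = 0.998), Timeless (r = 0.996) and Ppid (r = 0.996), all of which were lower in KO in both kinds of RNA (-0.64, -0.61 and -0.46 in total RNA). Nearest to Xrn1 were Ythdc2 (r = 0.988), Tmem65 (r = 0.988) and Ube2w (r = 0.984), with total changes of 0.20, 0.40 and 0.45. A likeness of this order was common, as 2346 genes had r above 0.9 with Dcp2 and 1393 with Xrn1. Among the 8 themselves, Edc4 ran opposite to Patl1 (r = -0.988) and to Edc3 (r = -0.983), Edc4 being higher in total than in 4sU libraries and the other two lower.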

How the data were processed

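Data came from 12 RNA-seq libraries of mouse ESCs, 3 for each genotype and library type, grouped and numbered by their titles. The authors deposited raw gene counts (whole numbers). Per the file headers and labels, the authors trimmed reads with cutadapt 1.14, mapped them to mm10 with STAR 2.5.3a and counted them by strand with featureCounts 1.5.3. Unique mapping leaves near-identical genes under-counted. Symbols from GENCODE M21 matched 51274 of 51467 genes, and 0 columns of per-sample values were left unused.

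Genes with at least 3 CPM in at least 3 libraries were kept (14033). TMM-scaled counts were fitted in limma 3.58.1 with voom weights (edgeR 4.0.16, R 4.3.3), all 12 libraries with terms for library type, for genotype and for the interaction, each comparison being a coefficient of its own parametrization. The self-test on simulated counts recovered known changes. Ratios and likeness used log2(CPM + 0.5). Depth was 4593914 to 9295245 counts per library, and reads were not collapsed by molecular identifiers.

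The 8 genes and all lists were chosen with earlier results of these data known. Listed genes were named when they passed in the ratio, or were among the 2 largest rises or falls of their list in total RNA. Xrn2, Exosc6, Lsm3 and Lsm7 were named, and Ddx6 and Patl2 drawn beside the Lsm ring, after their values were seen. A listed gene is not reported here and was left out of the counts of its list. Alternatives were edgeR, DESeq2 1.42.0, limma-trend, other scalings and filters, a 2-fold limit, replicate blocks and leaving out both libraries of each genotype and number. Deviations of same-numbered libraries from their group means correlated at -0.0747 to 0.0900 in the 4 pairs of groups sharing a genotype or a library type. Within a genotype they correlated at 0.0130 to 0.0900. None was over 0.1, and the main model did not pair libraries by number. By the study's methods the RNA of each labelled sample was split, so 4sU and total libraries do come in pairs from the same samples. The titles number both kinds alike, but no label states that equal numbers mark the same sample. Values this low do not exclude it, and with genotype and number as a replicate block no call among the 8 genes changed. The ratios relative to the median gene did combine same-numbered libraries.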

Additional observations from a re-analysis of the deposited data

Results flagged for a closer look

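For 3 of the 8 decay factors the effect of Dgcr8 loss differed between total and nascent RNA, by the interaction term of the model fitted to all genes. The difference (total minus nascent change, KO against wild-type) was -0.40 for Dcp1a (limma adjusted p = 0.00172), which rose in nascent RNA only. It was -0.54 for Edc3 (limma adjusted p = 0.00265), which also rose in nascent RNA only, and 0.29 for Edc4 (limma adjusted p = 0.0154), which fell in nascent RNA only. Over all genes 5.02% were higher and 11.1% lower in this comparison.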

How the results depend on the processing

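Of 381 alternative estimates for the changes of the 8 factors, 358 kept their direction and their side of the threshold, 19 turned direction, 2 lost their call (Edc4 in the ratio) and 2 gained one (Edc3 in total and Xrn1 in nascent RNA), each of these 4 with both libraries of a genotype and number left out. Counts of the 8 factors that passed were 3 to 4 in total RNA, 5 to 6 in nascent RNA and 2 to 3 in the ratio over the 6 such omissions, and the same genes passed under edgeR, DESeq2, limma-trend and every scaling and filter. Requiring a 2-fold change left 0 in each comparison. With the replicate number or the genotype and number as a replicate block the counts stayed at 3, 5 and 3, and no call changed. At least 3 CPM in all 12 libraries removed Dcp1b. The values that turned direction belonged to genes that did not pass in that comparison. Dcp1a in total RNA was 0.012 with DESeq2, 0.012 with RLE size factors, 0.033 with library size only, 0.011 with no filter and 0.00031 with the stricter filter. Dcp1b in nascent RNA was 0.0011 with limma-trend, 0.0048 with library size only and 0.022 with the replicate block. Dcp2 in the ratio was 0.010 with DESeq2 and 0.011 with RLE size factors. Patl1 in nascent RNA was -0.023 with DESeq2, -0.017 with upper-quartile scaling and -0.025 with RLE size factors. Over the omissions, Dcp1b ranged from -0.20 to 0.27 in nascent RNA and -0.24 to 0.81 in the ratio, Edc4 from -0.012 to 0.058 in total RNA, and Patl1 from -0.0020 to 0.088 in nascent RNA and -0.0016 to 0.054 in the ratio. The cause of these turns was not tested. Defining a site as any hexamer gave 4 of the 8 genes and as the longer match 1, by construction. With 13 to 48 reads per library, depth limits Dcp1b most.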
